A study of Mus musculus with 8 samples.

Results

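The muscle miRNAs described here are 6 mature mouse miRNAs of skeletal and cardiac muscle, measured in serum: mmu-miR-1a-3p, mmu-miR-133a-3p, mmu-miR-133b-3p, mmu-miR-206-3p, mmu-miR-208a-3p and mmu-miR-499-5p. The prefix for mouse is left out below. They were taken by name from the 1881 mouse miRNAs on the array, whatever their level, and all 6 have probes. Sera came from 4 non-irradiated male C57BL/6NJcl mice (0 Gy) and 4 such mice irradiated with 7 Gy of X-rays at 1 Gy/min, all 8 weeks old, and the 7 Gy sera were taken at 72 h. The text of the study names no time for the 0 Gy sera on the arrays. Serum holds no cells of its own, so that its miRNAs come from many tissues, and 30 ng of serum RNA was labelled for every array. A larger amount of 1 miRNA and a smaller amount of the other serum RNA cannot therefore be told apart, nor can the number of releasing cells and the RNA each released.

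MiRNAs are short RNAs that pair with target mRNAs mainly through their seed, bases 2 to 8 from the 5′ end, and reduce the output of those mRNAs. MiR-1 and miR-133a are transcribed together and are abundant in both skeletal and heart muscle, where miR-1 favours differentiation of muscle precursors and miR-133 their proliferation. MiR-206, a relative of miR-1, is largely restricted to skeletal muscle. MiR-208a, from an intron of a cardiac myosin gene, is specific to the heart, and miR-499 lies in a related myosin gene expressed in heart and slow skeletal muscle. Such miRNAs enter the blood when muscle cells are injured, and they are followed in plasma and serum for that purpose.

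The mature sequences show which members share a seed, and therefore which could pair with the same targets. RefSeq sequences (build GRCm38.p6) were matched for 4 of the 6 members and are printed 5′ to 3′ with the seed in capitals, beside miR-208b-3p, a paralog of miR-208a-3p.
miR-133b-3p: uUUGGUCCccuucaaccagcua
miR-206-3p: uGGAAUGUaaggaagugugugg
miR-208a-3p: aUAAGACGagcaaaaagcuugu
miR-208b-3p: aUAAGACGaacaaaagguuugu
miR-499-5p: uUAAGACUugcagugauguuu
MiR-133b-3p lies at chr1:20682834-20682855 and miR-206-3p at chr1:20679055-20679076, both on the plus strand and within the noncoding gene Lincmd1. MiR-208a-3p lies at chr14:54949072-54949093 on the minus strand within Myh6, miR-208b-3p at chr14:54975710-54975731 on the minus strand, and miR-499-5p at chr2:155622893-155622913 on the plus strand within Myh7b. MiR-208a-3p and miR-208b-3p had the same seed, UAAGACG, and the seed of miR-499-5p, UAAGACU, differed from it in the last base only. The seed of miR-206-3p, GGAAUGU, was also that of miR-6349 and miR-6382 among the matched sequences. No sequence was matched for miR-1a-3p and miR-133a-3p, so whether they share a seed with another member is not shown here. MiR-1a-3p and miR-133a-3p are made from 2 genes each, which neighbour each other in pairs, Mir1a-1 with Mir133a-2 and Mir1a-2 with Mir133a-1.

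The arrays themselves differed. The labelling spike-ins, control RNAs labelled with Cy3 together with the serum RNA, had a log10 signal of 2.73 to 3.68 at 0 Gy. At 7 Gy it was 3.35 in replicate 2 but 1.95 to 2.31 in replicates 1, 3 and 4, which the scanner software, Feature Extraction, placed outside its accepted range. Before scaling, the 90th percentile over all mouse miRNAs was 33.4 to 91.2 at 0 Gy and 93.9 in 7 Gy replicate 2, against 7.68, 8.21 and 47.1 in the other 7 Gy arrays. Each array was therefore scaled to a common 90th percentile, the normalization named in the methods of the study, by factors of 0.379 to 4.63. The number of miRNAs called detected was 531 to 603 at 0 Gy and 378 to 687 at 7 Gy.

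Members are reported on 2 scales. The summed signal is the value that Feature Extraction gives per miRNA, and only miRNAs called detected have one. The spot signal is the background-subtracted intensity averaged over the up to 15 spots of each probe and summed over the 2 probes of a miRNA, and it is also given where the miRNA was not called detected, with values below 0 where spots were dimmer than their background. A level of 1 miRNA cannot be set against that of another on either scale, since probes differ in brightness.

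No muscle miRNA passed the test between 7 Gy and 0 Gy. MiR-133a-3p and miR-133b-3p were the only members called detected in all 8 sera, and miR-1a-3p, miR-206-3p and miR-499-5p were called in 3 of 4 sera at 0 Gy and in 1 of 4 at 7 Gy. MiR-208a-3p was called in 7 of 8 sera, and its mean spot signal was the only one of the 6 that was higher at 7 Gy. After values under 100 were set to 100, as the lower cut-off of the methods was read, 3 members could be tested and 0 were called at an adjusted p under 0.05 (limma, Benjamini-Hochberg over 208 miRNAs). Of all miRNAs tested, 3.85% were called, 1.92% as higher and 1.92% as lower. At an unadjusted p under 0.05 there were again 0 of the 3 members, against 29.8% of all miRNAs tested. The methods' t-test with 1.5-fold, run on the values scaled and floored here, also called 0 of them, against 23.1% of all. The study itself listed fewer miRNAs with its own processing. The median log2 fold change over all 208 miRNAs tested was 0.17.

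**Figure D1:**
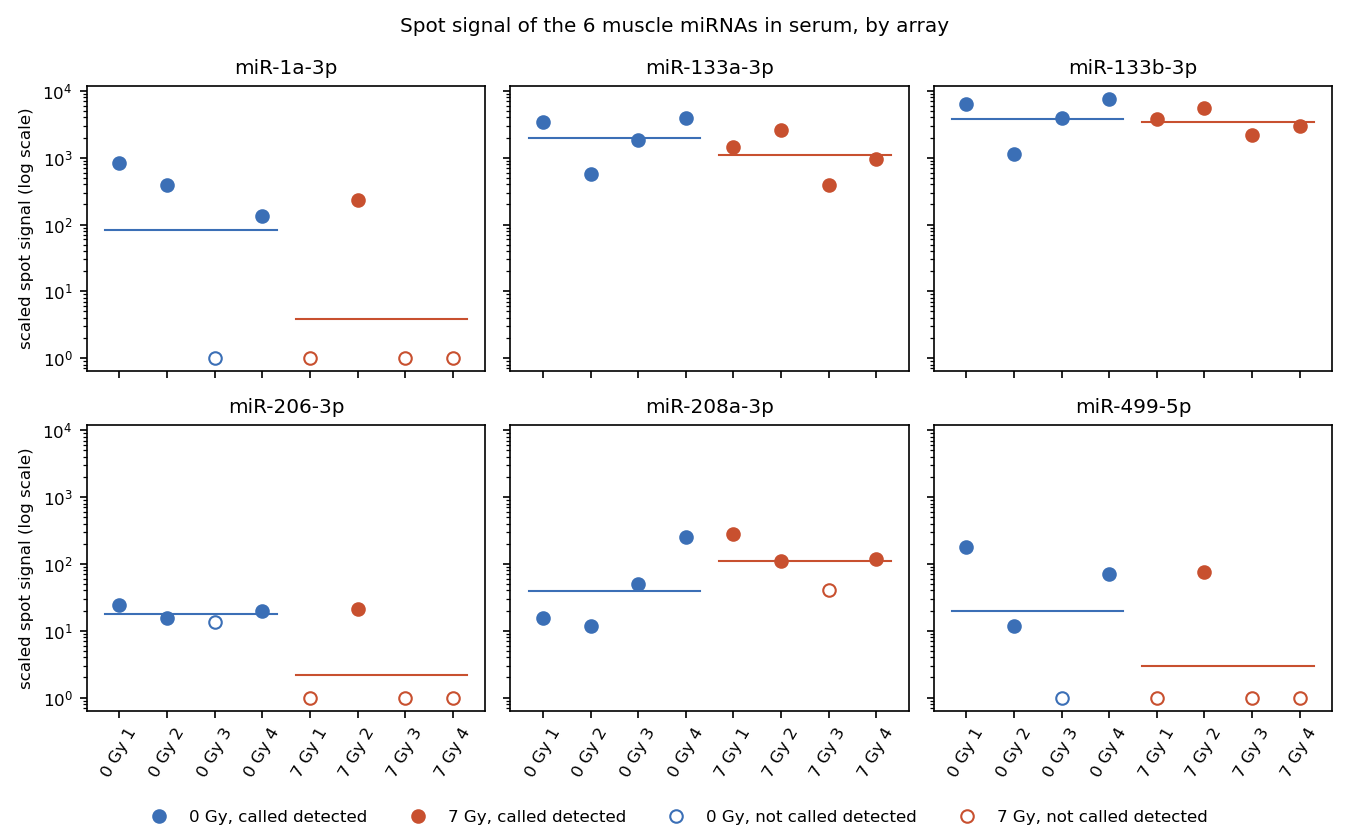
Scaled spot signal (log axis) of each member on the 8 arrays, 4 at 0 Gy in blue and 4 at 7 Gy in red. Filled points were called detected, open points were not, values under 1 are drawn at 1, and lines are the means of the log2 values. MiR-1a-3p, miR-206-3p and miR-499-5p have filled points on the same 4 arrays.

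Among the miRNAs of both muscle types, miR-133a-3p varied more between the sera of a group than between the groups. Its scaled summed signal was 953, 161, 517 and 1114 in 0 Gy replicates 1 to 4 and 303, 738, 81.3 and 270 in 7 Gy replicates 1 to 4. The groups overlapped, with 0 Gy replicate 2 below 3 of the 7 Gy sera and 7 Gy replicate 2 above 2 of the 0 Gy sera. The floored mean was 686 ± 432 at 0 Gy and 353 ± 272 at 7 Gy (SD, n = 4 each). The log2 fold change was −0.97 with a standard error of 0.80 and a 95% interval of −2.84 to 0.91 (limma adjusted p = 0.450). On the spot scale the difference was −0.85 (two-sided exact permutation test, p = 0.343, where 0.0286 is the smallest p that 4 against 4 allows).

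MiR-133b-3p, the paralog that lies beside miR-206 within Lincmd1, showed the same order of extremes at 0 Gy. Its scaled summed signals were 1799, 322, 1079 and 2121 at 0 Gy, against 795, 1544, 460 and 849 at 7 Gy. The lowest of all 8 was 0 Gy replicate 2, and the 7 Gy values lay inside the 0 Gy range. Means were 1330 ± 801 at 0 Gy and 912 ± 455 at 7 Gy (SD, n = 4 each). The log2 fold change was −0.37 with a standard error of 0.66 and an interval of −1.91 to 1.18 (limma adjusted p = 0.700). The difference of the spot signals was −0.17 (exact permutation p = 0.800).

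The direction for both miR-133 paralogs turned with the arrays used. Without the 3 arrays with labelling out of range, which leaves 7 Gy replicate 2 alone at 7 Gy and assumes that it varies as the 0 Gy sera do, the log2 fold change was 0.44 for miR-133a-3p and 0.53 for miR-133b-3p. Within slide row 1, which holds replicates 1 and 2 of both groups, it was 0.27 and 0.54, and within slide row 2, with replicates 3 and 4, −2.21 and −1.28. Scaled to the labelling spike-ins it was 0.68 and 1.39, where the median over all miRNAs tested moved to 0.50, and none of these values was called. The slide columns held 1 group each, so that column and group cannot be told apart.

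**Figure D2:**
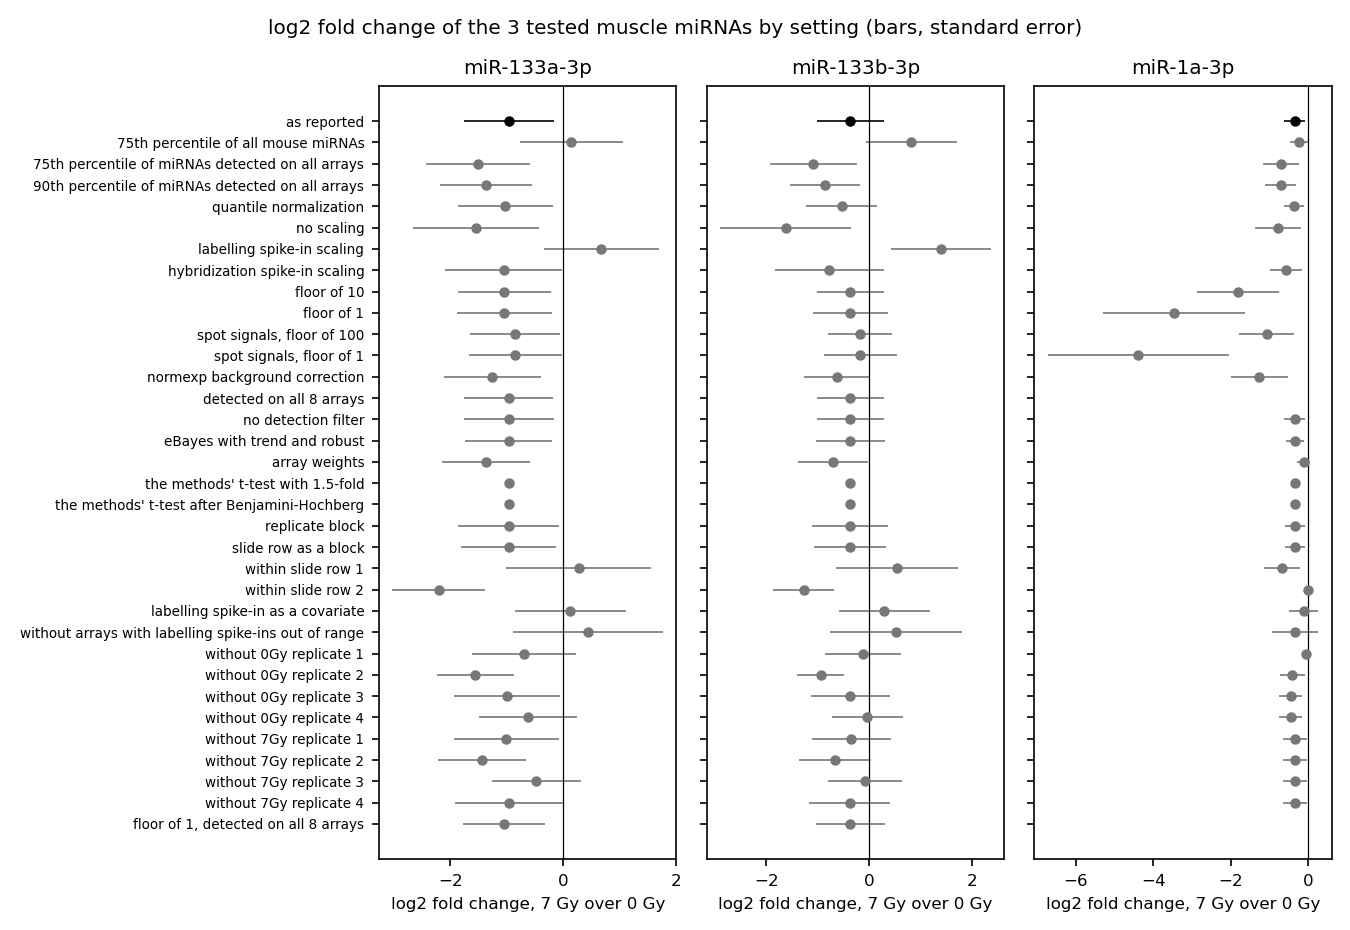
Log2 fold change of 7 Gy over 0 Gy (x axis, 0 is no difference) for the 3 tested members under each way of processing (y axis), with standard errors where the test gives one and the value as reported in black. MiR-133a-3p and miR-133b-3p lie above 0 in 5 settings each. MiR-1a-3p lies above 0 in none, but it was not tested with labelling spike-in scaling. As reported, all 4 of its 7 Gy values were at the floor of 100, so its fold change could not exceed 0.

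MiR-1a-3p, the differentiation-promoting miRNA of both muscle types, was called detected in 0 Gy replicates 1, 2 and 4 and in 7 Gy replicate 2. Its scaled summed signal in these was 228, 111, 38.2 and 65.0. Its scaled spot signal was 820, 397, −0.986 and 136 in 0 Gy replicates 1 to 4, and −6.66, 231, −9.15 and −2.30 in 7 Gy replicates 1 to 4. So 7 Gy replicate 2 lay between the 0 Gy sera that had a signal, and the other 7 Gy sera and 0 Gy replicate 3 had none above background. MiR-1a-3p passed the filter for the test only through 0 Gy replicates 1 and 2, the only arrays above 100, and its log2 fold change was −0.33 with a standard error of 0.27 (limma adjusted p = 0.448). Without 0 Gy replicate 1 this was −0.05. On the spot scale, where values under 1 were set to 1, the difference was −4.39, and with those under 10 set to 10 it was −2.73 (exact permutation p = 0.257 for both).

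MiR-206-3p, the skeletal muscle miRNA, was dim on all arrays. Its scaled spot signal was 24.1, 15.8, 13.5 and 19.5 at 0 Gy, against −12.7, 20.9, −15.2 and −0.337 at 7 Gy. The 0 Gy sera lay close together, 7 Gy replicate 2 lay among them, and the other 7 Gy sera were below 0. MiR-206-3p was under 100 on every array and was not tested with the floor. On the spot scale the difference was −3.06 with signals under 1 set to 1 and −0.57 with those under 10 set to 10 (exact permutation p = 0.114 for both), so that its size is set by the limit. Without 7 Gy replicate 2 it was −4.15 and the exact permutation p 0.0286, the smallest that 4 against 3 arrays allow. The 7 Gy arrays then left are the 3 with labelling out of range, all set to the limit of 1. Labelling and dose cannot be told apart there. On all 8 arrays, limma on the spot signals with a floor of 1 gave an unadjusted p of 0.0117 and an adjusted p of 0.0927. On the summed signals with a floor of 1 limma gave −1.19 (adjusted p = 0.358).

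MiR-499-5p, of heart and slow skeletal muscle, had a scaled spot signal of 179, 11.7, 0.777 and 70.7 at 0 Gy, against −1.93, 76.3, −5.03 and −0.513 at 7 Gy. Again only 7 Gy replicate 2 among the irradiated sera had a signal, and it lay within the 0 Gy range. The difference on the spot scale was −2.73 (exact permutation p = 0.371), and −1.07 where signals under 10 were set to 10, so that its size depends on the limit. Its summed signal was under 100 on every array after scaling and was not tested, and limma on spot signals with a floor of 100 gave −0.21 (adjusted p = 0.487).

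The 3 miRNAs thus had 1 detection pattern, 0 Gy replicates 1, 2 and 4 and 7 Gy replicate 2. These are the 4 arrays with the highest labelling spike-in signals, log10 3.35 to 3.68, against 1.95 to 2.73 on the other 4. The pattern was not particular to muscle miRNAs, since 26 of the 1881 miRNAs had it, 3.23% of the 804 detected on any array. Sequences were found for 21 of these 26, with a median GC content of 40.9%, against 59.5% for the miRNAs detected on all 8 arrays. MiR-206-3p has a GC content of 45.5%, miR-499-5p of 33.3%, and miR-208a-3p of 36.4%, and a check over the members was void with 4 of 6 sequences.

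**Figure D3:**
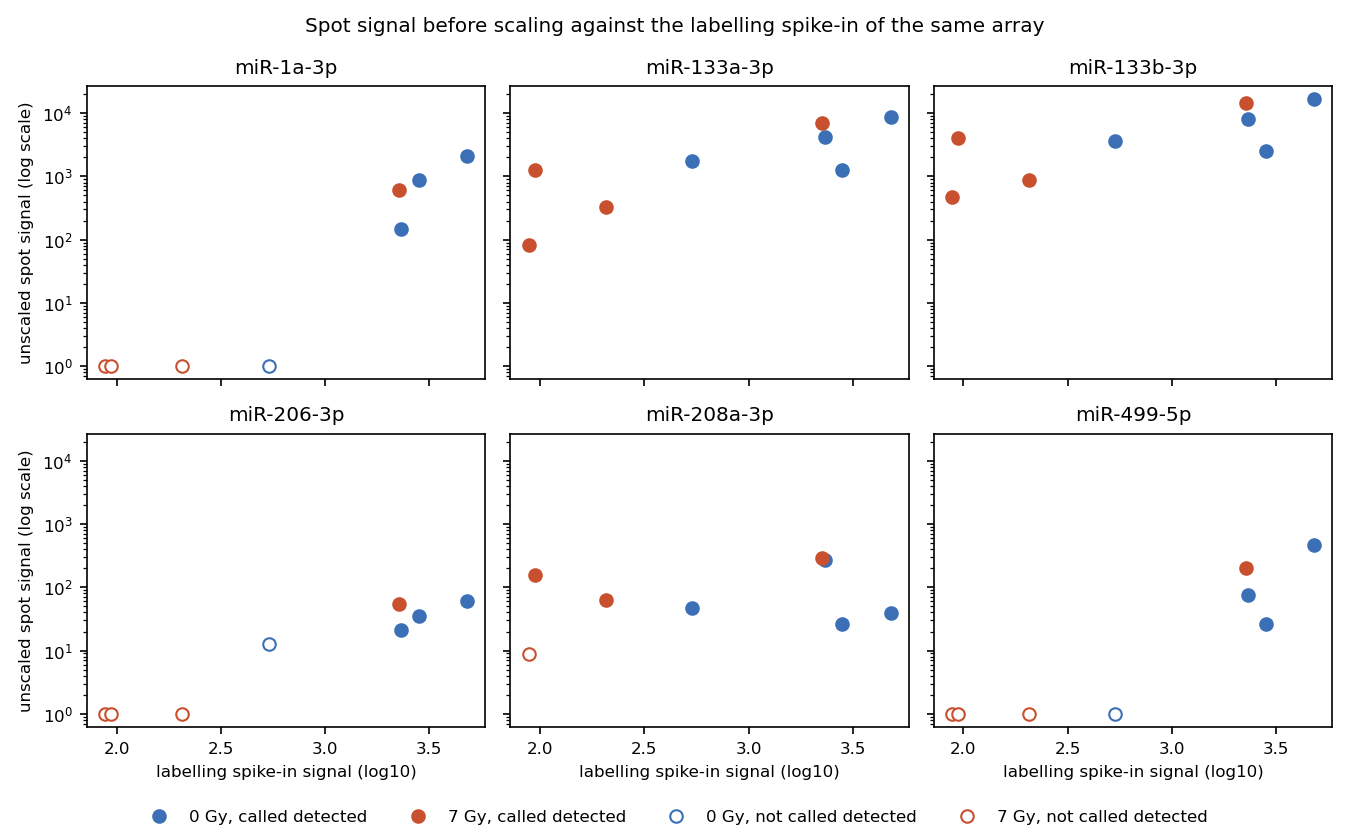
Spot signal of each member before scaling (y axis, log scale) against the labelling spike-in signal of the same array (x axis, log10), with 0 Gy in blue and 7 Gy in red, open points not called detected and values under 1 drawn at 1. MiR-1a-3p, miR-206-3p and miR-499-5p are called only on the 4 arrays at 3.35 and above, whereas miR-208a-3p is called on 7 arrays.

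MiRNAs of blood cells and liver differed between the same arrays, but not all in the same way. Of the 4 red cell miRNAs looked at (miR-451a, miR-144-3p, miR-486a-5p and miR-16-5p), all 4 were detected in every 0 Gy serum. Among the irradiated sera, 2 of them, miR-144-3p and miR-16-5p, were detected in 7 Gy replicate 2 only. MiR-126a-3p and miR-122-5p had this pattern too. It was held by 56 of the 1881 miRNAs, 6.97% of the 804 detected on any array. The added scaled signal of the 4 red cell miRNAs was 16446 to 80867 at 0 Gy and 7322 to 25820 at 7 Gy. The platelet, endothelial and myeloid miRNAs miR-126a-3p and miR-223-3p together ranged from 33.2 to 1480 at 0 Gy and from 6.87 to 613 at 7 Gy, and liver miR-122-5p from 5.26 to 442 at 0 Gy and from 0 to 806 at 7 Gy. MiR-451a, the red cell miRNA, had a scaled summed signal of 67369, 39046, 2762 and 5570 at 0 Gy, against 83.5, 14871, 32.9 and 10.6 at 7 Gy. MiR-486a-5p, from the same list, was ordered otherwise, at 6501, 8009, 34551 and 10752 at 0 Gy, against 12661, 2282, 25788 and 7312 at 7 Gy, with 7 Gy replicate 2 the lowest. None of the 4 had the detection pattern of miR-1a-3p, since all were detected in 0 Gy replicate 3. The scaled spot signal of miR-144-3p was nevertheless ordered much as that of miR-1a-3p. It was 375, 367, 40.7 and 197 at 0 Gy, against −1.04, 374, −6.70 and −1.25 at 7 Gy. MiR-16-5p too had its lowest 0 Gy spot signal in replicate 3, at 227. The part of blood cells and of labelling in the values of the muscle miRNAs was not tested.

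MiR-208a-3p, the heart-specific member, missed detection only in 7 Gy replicate 3. Its scaled spot signal was 15.3, 11.8, 50.2 and 251 at 0 Gy, against 278, 111, 41.1 and 119 at 7 Gy. Of the 7 Gy sera, 3 lay above 3 of the 0 Gy sera, but 0 Gy replicate 4 exceeded all 7 Gy sera except replicate 1. On the log2 scale the mean was 5.28 ± 2.01 at 0 Gy and 6.79 ± 1.13 at 7 Gy (SD, n = 4 each), and the difference of 1.51 did not pass (exact permutation p = 0.229). Its direction was kept in all 12 alternatives on the spot scale, with differences of 0.25 to 3.27. On that scale the median difference over 633 miRNAs was itself 0.90. With a floor of 100 the log2 fold change of miR-208a-3p lay below the median of all miRNAs in each setting that tested it. These were the 75th percentile of all miRNAs (0.36 against 0.65), labelling spike-in scaling (0.44 against 0.50) and the spot signals (0.14 against 0.26). On the summed signals it lay above the median with a floor of 10 (0.66 against 0.34) or of 1 (0.66 against 0.47). The scaled values at 7 Gy depend on factors of 4.33 and 4.63 in replicates 1 and 3. Before scaling the spot signal was 39.3, 26.2, 47.2 and 270 at 0 Gy, against 64.1, 292, 8.88 and 158 at 7 Gy.

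All 6 members overlapped between the groups in spot signal, where 14.8% of the 633 miRNAs detected on at least 3 arrays did not overlap. With the floor, 12.0% of the miRNAs tested did not overlap.

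Where both signals are above the limit of 1, a ratio within an array does not depend on its scaling. The log2 ratio of miR-133a-3p to miR-1a-3p, transcribed from shared loci, was 2.06, 0.54, 10.85 and 4.87 at 0 Gy, against 10.48, 3.50, 8.58 and 9.90 at 7 Gy. In 4 arrays miR-1a-3p was under 1 and set to 1, so that these ratios are set by the limit. The groups differed by 3.54 (exact permutation p = 0.286), by 1.88 with signals under 10 set to 10, and by −1.08 without the arrays with labelling out of range, where 7 Gy replicate 2 stands alone. The log2 ratio of miR-206-3p to miR-1a-3p, members of 1 family, was −5.09, −4.65, 3.76 and −2.80 at 0 Gy and −3.47 in 7 Gy replicate 2. In the other 7 Gy sera both signals were set to 1, which fixes the ratio at 0, so that no comparison of the groups is drawn from it.

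The ratio of miR-133b-3p to miR-133a-3p was looked at after its values had been seen, and is given without a test. Its log2 value was 0.92, 1.00, 1.06 and 0.93 at 0 Gy, against 1.39, 1.07, 2.50 and 1.65 at 7 Gy. The 0 Gy sera and 7 Gy replicate 2 lay together at 0.92 to 1.07, and the 3 arrays with labelling out of range lay above them. With the brighter probes alone the difference between groups was 0.76 and with the dimmer probes alone 0.29, and the groups overlapped in both. The split by labelling did not hold with the dimmer probes. Their log2 ratio was 1.04, 1.28, 1.65 and 1.17 in 7 Gy replicates 1 to 4, against 0.94 to 1.09 at 0 Gy. For miR-133a-3p the brighter probe was 6.53 to 7.38 times the dimmer one at 0 Gy and 7.62 times in 7 Gy replicate 2, but 4.76, 3.00 and 4.06 times in 7 Gy replicates 1, 3 and 4. For miR-133b-3p the same ratio was 6.87 to 7.29 at 0 Gy and 6.09 to 6.43 at 7 Gy. So the 2 probes of miR-133a-3p did not fall alike on the arrays with labelling out of range, and the part of labelling in this was not tested.

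**Figure D4:**
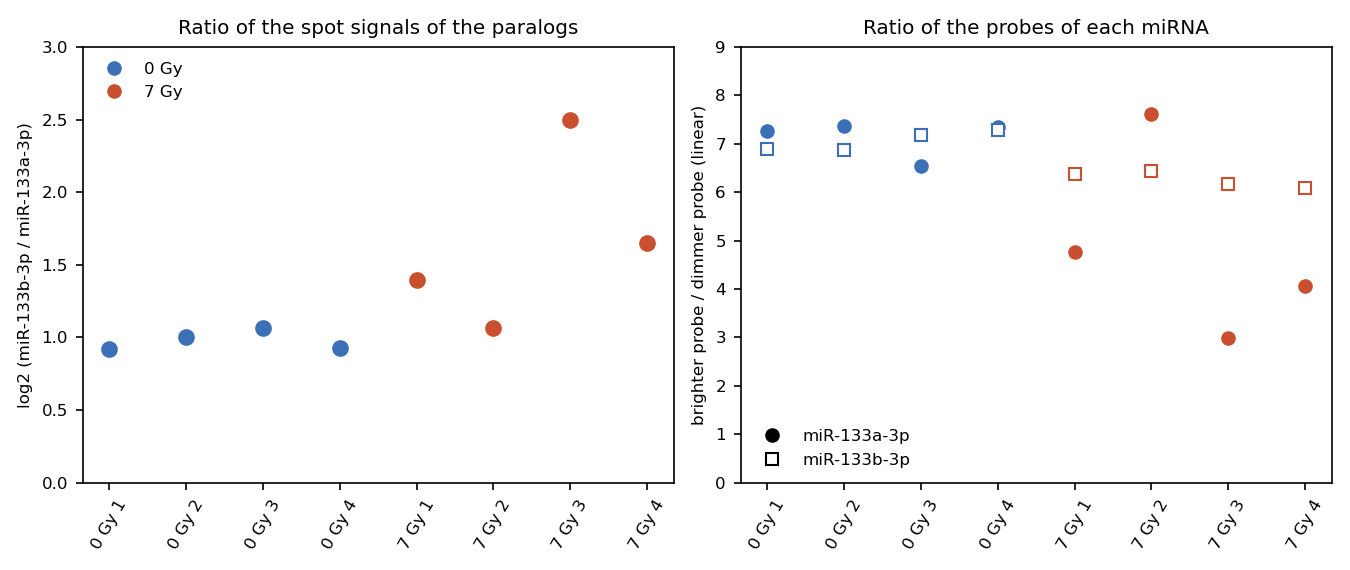
Left, log2 ratio of the spot signals of miR-133b-3p and miR-133a-3p on each array. Right, linear ratio of the brighter to the dimmer probe of miR-133a-3p (circles) and miR-133b-3p (squares), with 0 Gy in blue and 7 Gy in red, where 7 Gy replicates 1, 3 and 4 stand apart for miR-133a-3p.

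Of the 12 other arms and paralogs of the same families on the array, 9 were detected in no serum and 3 in at least 1, and none of the 12 reached a scaled summed signal of 100, so that none was tested. MiR-133a-5p, the other arm of the miR-133a hairpin, was detected in all 0 Gy sera and in 7 Gy replicate 2. It is 1 of the 56 miRNAs with this pattern, 6.97% of the 804 detected on any array. Its scaled spot signal was 225, 85.0, 169 and 256 at 0 Gy, against 11.6, 255, −1.14 and 7.63 at 7 Gy, with 7 Gy replicate 2 level with the highest 0 Gy serum. MiR-208a-5p, the other arm of the heart-specific hairpin, was detected on all 8 arrays, at 32.3, 43.1, 109 and 63.6 at 0 Gy, against 299, 71.5, 418 and 118 at 7 Gy. The groups overlapped through 0 Gy replicate 3. Before scaling, 7 Gy replicates 1 and 3 were at 69.1 and 90.2, inside the 0 Gy range of 68.4 to 102. Replicates 2 and 4 at 7 Gy were above that range, at 189 and 157. MiR-208b-3p, whose seed is that of miR-208a-3p, was detected in 7 Gy replicates 2 and 4 only, and was dim there. Its scaled summed signals were 4.45 and 1.79, and its scaled spot signals 15.8 and 12.1. In 7 Gy replicate 1, where it was not called, the scaled spot signal was higher, at 19.4. The groups overlapped in spot signal, with 7 Gy replicate 3 at −3.78, below all 0 Gy sera. These calls therefore show no difference between the groups. Of the matched miRNAs with the seed of miR-206-3p, miR-6349 was detected on 8 arrays and miR-6382 on 0.

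Likeness was measured against miR-133b-3p, the tested member with the highest mean signal. Over the 8 arrays the tested miRNAs outside the list whose log2 signals were most like it were miR-106b-5p (Pearson r = 0.67), miR-30e-5p (0.59), miR-3963 (0.54), miR-19a-3p (0.53) and miR-29c-3p (0.51). Its paralog miR-133a-3p had an r of 0.95 with it and miR-1a-3p an r of 0.32, with 6 of its 8 values at the floor. Of 8 values each, miR-19a-3p also had 6 at the floor, miR-106b-5p 3 and miR-29c-3p 2. These 8 points share their scaling and labelling, and the order of the 5 is a description.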

How the data were processed

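Agilent Feature Extraction made the deposited intensity values from 1-colour arrays (8 on 1 slide and 1 scan). Through it the authors subtracted background and summed the probes of each miRNA, with 0.1 where it was not called detected and no normalization between arrays. The version is 10.7 in the methods and 11.5 in the submitters' processing notes.

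Each array was scaled to the geometric mean of the 90th percentiles over the 1881 mouse miRNAs, raised to 100 where lower, and put on the log2 scale. MiRNAs detected on at least 3 of 8 arrays and not at the floor on all 8 were tested (208) with limma 3.58.1 in R 4.3.3, without covariates. Spot signals, with outlier spots left out (2.57%) and values under 1 set to 1, were tested by exact permutation, two-sided, over 70 arrangements. No spot was saturated. The number of arrays limits the precision. The study gives 4 mice per group.

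The members and lists were chosen with earlier results of these data known. Named were the members, their other arms and paralogs, and the 5 tested miRNAs most correlated with the tested member of highest mean, with 7 blood cell and liver miRNAs where they moved with a result. Alternatives covered scaling, floor, background correction, filter, the methods' t-test, array weights, variance prior, slide row, replicate block, labelling spike-ins and leaving out arrays. The floor of 1 for miRNAs detected on all 8 arrays and the ratio of the miR-133 paralogs were added after seeing the data.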

Additional observations from a re-analysis of the deposited data

Results flagged for a closer look

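In 5 of the 24 sets of 4 arrays examined, 1 array lay far from the other 3 (Dixon's criterion, which chance meets in about 5% of sets). The log2 scaled spot signal of 7 Gy replicate 2 was 7.85 for miR-1a-3p, 4.39 for miR-206-3p and 6.25 for miR-499-5p, while the other 7 Gy arrays were at the limit of 1, and its log2 ratio of miR-206-3p to miR-1a-3p was −3.47. This array is the 7 Gy array with the labelling spike-ins in range. In these sets of 7 Gy arrays the other 3 values were equal, since their signals were set to the limit. Any differing value then stands out, so the 5% does not apply to them. The floored log2 signal of miR-1a-3p was 7.83 in 0 Gy replicate 1, in a set with 2 values at the floor. These sets share arrays and are not independent.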

How the results depend on the processing

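The count of muscle miRNAs called was 0 in the fit as reported and in each of the 33 alternatives, where the calls over all miRNAs tested, 8 as reported, ranged from 0 to 75 (with array weights). The log2 fold change of miR-133a-3p and miR-133b-3p, in this order, turned to 0.15 and 0.82 with the 75th percentile of all miRNAs, where the median over all miRNAs was 0.65, to 0.68 and 1.39 with labelling spike-in scaling, where it was 0.50, to 0.27 and 0.54 within slide row 1, to 0.13 and 0.30 with the labelling spike-in as a covariate, and to 0.44 and 0.53 without the arrays with labelling out of range. Relative to those medians the first was −0.50 and 0.17, the next 0.18 and 0.89. The adjusted p of all alternatives ranged from 0.228 to 1.00 for miR-133a-3p, 0.294 to 1.00 for miR-133b-3p and 0.211 to 1.00 for miR-1a-3p, whose log2 fold change was −4.39 to 0.00.

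On the spot scale, labelling spike-in scaling gave 0.91 for miR-133a-3p and 1.58 for miR-133b-3p. The difference of miR-133b-3p was 0.08 without 0 Gy replicate 1, 0.15 without 0 Gy replicate 4 and 0.04 without 7 Gy replicate 3, and −0.75 to 0.15 over all arrays left out singly. Without the arrays with labelling out of range, 1 array is left at 7 Gy. The group difference in the within-array ratio of miR-133a-3p to miR-1a-3p then turned from 3.54 to −1.08. Leaving out single arrays gave 2.19 to 5.63. For miR-206-3p to miR-1a-3p the difference went from 1.33 to −1.27, and leaving out single arrays gave 0.37 to 3.32. That ratio is fixed at 0 by the limit in 7 Gy replicates 1, 3 and 4. No comparison of the groups is therefore drawn from its values. The causes were not tested.

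With the replicate block 0 of all 208 miRNAs were called, members included, with the same fold changes and adjusted p of 0.496, 0.731 and 0.425 for miR-133a-3p, miR-133b-3p and miR-1a-3p. Deviations of same-numbered arrays correlated at −0.34, 0.43, 0.55 and 0.42, and 0 Gy replicates 2, 3 and 4 correlated best with the 7 Gy array of their number but replicate 1 with 7 Gy replicate 2. Not every pair was positive, so the numbers were not taken to pair the arrays.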
